A study of Homo sapiens with 8 samples.

Results

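Most splicing choices in a cell lie between 2 junctions, but some exons are joined to 5 or more alternative partners. These many-way choices were examined in JSL1 cells, a monoclonal line derived from the human T lymphocyte line Jurkat, with and without depletion of the RNA-binding protein CELF2. A local splicing variation (LSV) is the set of junctions that leave 1 exon (a source LSV) or enter 1 exon (a target LSV), a retained intron counting as 1 choice, and LSVs listed with 5 or more choices in either of the authors' deposited tables were taken. In all 7414 of 95692 LSVs met this rule, in 4032 of 11431 genes: 7123 of 91480 in the table of unstimulated cells and 7128 of 91729 in that of PMA-treated cells, with 6837 in both, listed there with identical junctions. For counts of genes, 1 LSV was taken per gene, that with the most choices, which left 3878 genes without and 3884 with PMA.

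The 8 libraries of polyadenylated RNA form 4 groups of 2: unstimulated control cells, unstimulated CELF2-depleted cells, control cells given PMA at 20 ng/mL for 48 hours, and CELF2-depleted cells given PMA in the same way. PMA, a phorbol ester, stimulates T cells by way of protein kinase C. CELF2 was depleted with short hairpin RNAs delivered by lentivirus and switched on with doxycycline; the sources used here do not say what hairpin or doxycycline the control cells had. All cells are 1 line, so the values describe JSL1 and not primary T cells. The study's title gives its aim as finding the functional targets of CELF2 in T cells. Of 16 T cell marker genes 13 had a listed LSV in either state, against 1 of 17 markers of other lineages (CD79A).

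Each share below is an expected percentage of use that the authors listed once per group, over the pair of libraries. The spread between libraries and the read depth behind a share are therefore unknown, and no interval or test over libraries was possible. Shares are printed as listed and those of 1 LSV can sum to somewhat over 100%. A junction was called, and is said to have risen or fallen, where the posterior probability in the authors' deposited table that its share differed by 20 points or more between control and depleted cells reached 0.95. An LSV was called where any of its junctions was. Where 4 shares are given in a row, they stand for unstimulated control, unstimulated depleted, PMA-treated control and PMA-treated depleted cells. Shares are averages over a culture, so a change in every cell and a change in the mix of cells cannot be told apart. The RNA level of CELF2 could not be checked, because the tables hold no expression values.

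CELF2 belongs to the CELF family, which binds RNA rich in U and G and can either promote or repress an exon, depending on where it binds. When several exons compete for 1 partner, a change can take 3 forms: 1 dominant junction can replace another, use can spread over many junctions, or it can narrow to 1. Shannon entropy separates these forms. It is low when 1 junction takes nearly all the use and reaches its maximum, the base-2 logarithm of the number of choices, when all are used equally. Listed shares ran from 2.5% to 97.5%, so that an LSV of 5 choices cannot go under 0.63 bits and 1 of 10 choices cannot go under 1.29 bits.

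Some exons whose choice changed most are printed here as a guide to the values that follow. Those chosen are optional or competing coding exons that matched a GENCODE 29 transcript of the same gene. The sequences come from those transcripts, 5′ to 3′ on the RNA strand, with the junction's position on hg19. Of MYL6 (junction chr12:56554104-56554410, plus strand) and NF2 (chr22:30079053-30090741, plus) only the coding part of a 45-nucleotide exon is shown, with the stop codon in capitals: each exon ends the open reading frame within itself.
MYL6 optional exon: cgtttgtgaggcatatcctgtcggggTGA
NF2 optional exon: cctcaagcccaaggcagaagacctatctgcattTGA
EPB41L2 (chr6:131201346-131206236, minus) has an optional exon of 63 nucleotides. UAP1 (chr1:162560301-162562522, plus) has one of 51 nucleotides, in which the capitals mark the 3 bases left out when a second acceptor just downstream is used.
EPB41L2 optional exon: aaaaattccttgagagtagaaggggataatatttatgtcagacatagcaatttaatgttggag
UAP1 optional exon: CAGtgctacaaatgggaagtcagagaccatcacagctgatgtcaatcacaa
FNBP1 (exon shared by all junctions at chr9:132671169-132671285, minus) chooses between a farther exon of 198 and a nearer one of 183 nucleotides, and MCTP1 (shared exon chr5:94248511-94248681, minus) among exons of 39, 60 and 78 nucleotides. GIT2 (chr12:110377052-110383065, minus) has a nearest partner of 90 nucleotides.
FNBP1 farther exon: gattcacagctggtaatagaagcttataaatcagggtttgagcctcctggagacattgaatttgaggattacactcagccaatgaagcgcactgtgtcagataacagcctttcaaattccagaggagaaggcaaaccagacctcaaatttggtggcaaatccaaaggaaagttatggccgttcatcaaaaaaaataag
FNBP1 nearer exon: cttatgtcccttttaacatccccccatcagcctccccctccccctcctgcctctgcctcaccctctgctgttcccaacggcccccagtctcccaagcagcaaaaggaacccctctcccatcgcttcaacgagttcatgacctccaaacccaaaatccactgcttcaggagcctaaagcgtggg
MCTP1 exon b: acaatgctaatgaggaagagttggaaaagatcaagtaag
MCTP1 exon c: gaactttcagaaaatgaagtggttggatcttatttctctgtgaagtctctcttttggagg
MCTP1 exon d: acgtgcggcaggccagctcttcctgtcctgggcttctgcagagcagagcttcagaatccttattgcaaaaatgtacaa
GIT2 nearest exon: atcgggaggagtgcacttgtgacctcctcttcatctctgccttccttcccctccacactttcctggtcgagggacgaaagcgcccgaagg
All these exons have a length that is a multiple of 3.

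Among the LSVs with 5 or more choices in unstimulated cells, 54.5% had exactly 5, 42.3% had 6 to 9 and 3.23% had 10 or more, and the most was 21. Target LSVs made up 55.1%, against 50.3% of LSVs with 3 to 4 choices and 45.3% of those with 2. Nearly all (94.8%) held exon skipping, 71.9% alternative donor sites and 72.6% alternative acceptor sites, and 53.3% held all 3 kinds at once. A retained intron was listed in 34.5% and a junction absent from the authors' annotation in 82.8%, against 59.4% for LSVs of 2 choices. PMA-treated cells had nearly the same composition.

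A long list of choices did not mean that all were used. In unstimulated control cells the main junction, the one with the largest share, had a median share of 86.2% in LSVs of 5 or more choices, against 95.4% with 3 to 4 and 97.5% with 2. On average 2.01 junctions had a share over 5%, and in 37.5% of the LSVs only 1 did. Use spread over 5 or more junctions above 5% in 121 LSVs of 106 genes in unstimulated controls and in 130 LSVs of 116 genes in PMA-treated controls. Just outside and inside the rule, LSVs of 4 choices had a median entropy of 0.63 bits and LSVs of 5 choices 0.88 bits in unstimulated controls.

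Across genes the entropy hardly differed between groups. The median was 1.16 bits in unstimulated control and 1.15 in unstimulated depleted cells, and 1.18 in control and 1.20 in depleted cells given PMA. Without PMA entropy was higher in depleted cells for 1765 genes and lower for 1722, and the middle 90% of changes lay between -0.33 and 0.34 bits. With PMA it was higher for 1906 and lower for 1632, with a middle 90% from -0.35 to 0.40 bits. Medians were higher with more choices in every group, in unstimulated controls going from 0.89 bits at 5 to 2.06 bits at 10. The main junction was the same in all 4 groups for 3305 of the 3727 genes listed in both tables (88.7%).

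**Figure D1:**
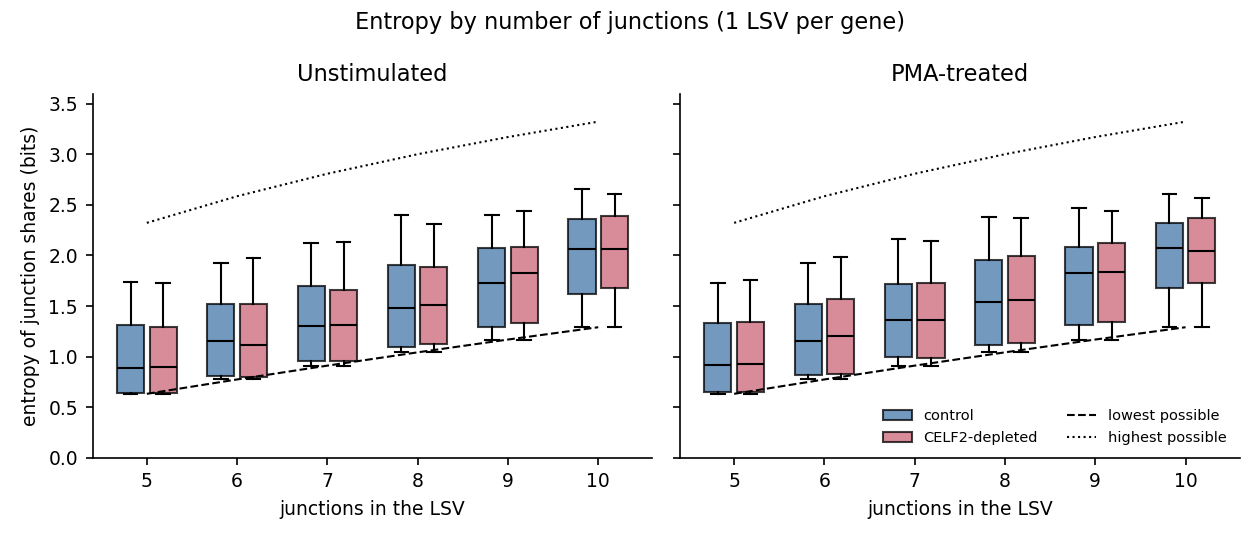
Entropy of the junction shares (bits, vertical axis) of 1 LSV per gene against its number of choices from 5 to 10 (horizontal axis), in control (blue) and CELF2-depleted (red) cells without PMA (left) and with PMA (right). Boxes are quartiles with the median, whiskers the 5th and 95th percentiles over genes, the dashed line the lowest and the dotted line the highest possible value; control and depleted boxes overlap at every number of choices.

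One group was counted as apart from the others more often than the rest were. Of the 6837 LSVs in both tables, 857 had a group at least 20 points from the median of the other 3 at the junction that varied most. An LSV in which 2 groups lie far from the other 2 can also pass this rule. It is then counted for 1 group only, so the counts are not all of 1 group against 3. The group counted was PMA-treated control in 358 (41.8%), unstimulated depleted in 208 (24.3%), PMA-treated depleted in 170 (19.8%) and unstimulated control in 121 (14.1%). LSVs with 2 and with 3 to 4 choices showed the PMA-treated control group apart at like shares, 39.4% and 41.8%. The effects given below for PMA-treated cells rest on this group as their reference, and whether 1 of its 2 libraries carries the difference could not be examined, since the deposited values combine both.

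The first comparison asked which many-way choices differ between control and CELF2-depleted cells. Without PMA 193 LSVs in 176 genes were called, 2.71% of the LSVs with 5 or more choices, against 0.985% of all LSVs, 0.594% of those with 2 and 1.24% of those with 3 to 4. With PMA 305 in 275 genes were called, 4.28%, against 1.87% of all, 1.13% of those with 2 and 2.54% of those with 3 to 4. More choices give more chances for a call. Judged by the main junction of control cells alone, which gives each LSV 1 chance, the shares were 2.16% without and 3.3% with PMA, against 1.06% and 2.16% for LSVs of 3 to 4 choices, 0.594% and 1.13% for those of 2, and 0.878% and 1.66% of all.

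How dominant the main junction is moved with these shares. Among LSVs whose main junction held 50 to 90% in control cells, 3.7% with 5 or more choices, 3% with 3 to 4 and 2.91% with 2 were called in any junction without PMA. The same shares with PMA were 5.34%, 5.66% and 5.41%. Where the main junction held over 90%, the called shares were 0.735%, 0.296% and 0.215% without PMA and 0.945%, 0.667% and 0.378% with it. At the edge of the rule, 1.53% of LSVs with 4 choices and 2.45% with 5 were called without PMA, and 3.39% and 3.96% with PMA.

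**Figure D2:**
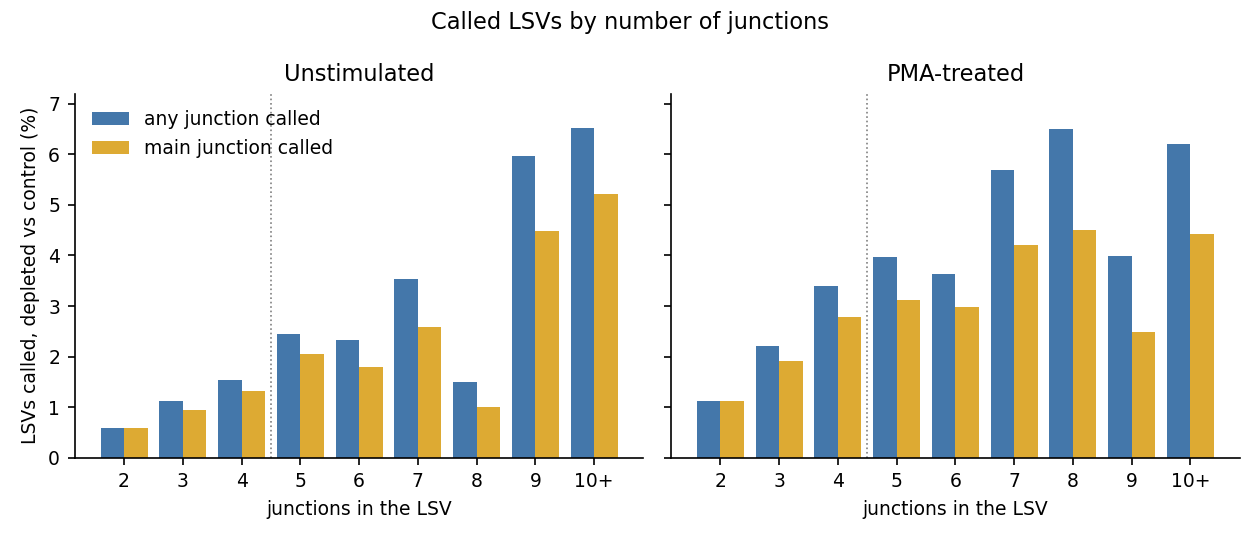
Share of LSVs called between control and CELF2-depleted cells (percent, vertical axis, from 0) by number of choices (horizontal axis), without PMA (left) and with PMA (right), by any junction (blue) or by the main junction of control cells alone (yellow); the dotted line marks the rule of 5 or more. In unstimulated cells the blue bars go from 0.594% at 2 choices to 6.52% at 10 or more, with 1.5% at 8, where 6 of 401 LSVs were called.

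Counted with 1 LSV per gene, 127 of 3878 genes (3.27%) were called without PMA and 184 of 3884 (4.74%) with PMA, against 2.22% and 3.6% of all genes taken in the same way. Entropy was higher in depleted cells in 75 of the 127 and lower in 52, and with PMA higher in 106 and lower in 78. This direction turned in 2 subsets: without PMA, source LSVs alone had 24 higher and 28 lower, and with PMA, target LSVs alone had 68 higher and 69 lower. The main junction was replaced by another in 60 of the 127 (47.2%) and in 78 of the 184 (42.4%). Called LSVs of 3 to 4 choices had like shares. Over all called LSVs, without and with PMA, the main junction was replaced in 49.2% and 43.9% with 5 or more choices, against 49.5% and 45.1% with 3 to 4. Entropy was higher in depleted cells in 55.4% and 56.4%, against 57.6% and 55.4%. The median share of the control cells' main junction was 66.7% in control and 42.2% in depleted cells for genes called without PMA, and 63.4% and 42.1% for genes called with PMA; the junction is chosen as the highest in control cells, which favours a lower value in the other group.

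**Figure D3:**
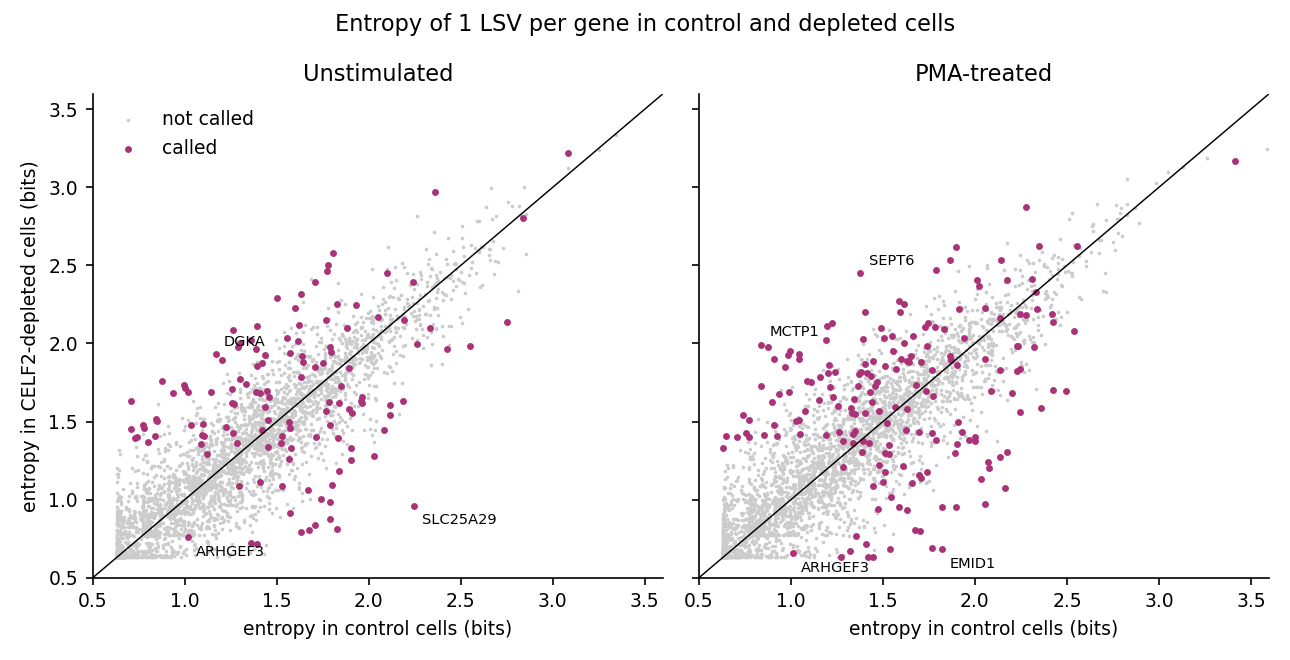
Entropy in CELF2-depleted cells (bits, vertical axis) against control cells (bits, horizontal axis) for 1 LSV per gene, without PMA (left, 3878 genes) and with PMA (right, 3884 genes); purple points are the 127 and 184 called genes, grey points the others, and the line marks equal entropy. Called genes lie on both sides of the line. ARHGEF3, in which 1 junction replaced another, lies below it, with changes of -0.256 bits without and -0.351 bits with PMA.

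The choice that changed was mostly one between different partner exons: the most risen and the most fallen junction reached different exons in 148 of 193 called LSVs without PMA (76.7%) and in 222 of 305 with PMA (72.8%). In called LSVs of 3 to 4 choices the same shares were 63.4% and 65.2%. A retained intron was 1 of the 2 in 32 LSVs without and 53 with PMA. In 7 without and 23 with PMA the 2 junctions differed in a splice site of 1 exon, either the partner or the shared one.

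Many of these partner exons begin a transcript. In GENCODE 29, a catalogue of human transcripts, 6201 of the 7123 LSVs (87.1%) without PMA and 6194 of 7128 (86.9%) with PMA matched a transcript of the same gene by structure. A partner was counted as a first exon where it begins any matched transcript, even if it is internal to most of them. The counts can therefore overstate exchanges of first exons. They cover called target LSVs whose most risen and most fallen junctions were both annotated. By this rule both partners were first exons in 59 of 103 without PMA (57.3%) and in 57 of 116 with PMA (49.1%). Among all target LSVs, called or not, the shares by the same rule were 41.4% (879 of 2125) and 41.1% (867 of 2110). Where a first exon is exchanged, the choice of a start site and the choice of a splice site cannot be told apart in these tables.

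Many of the largest changes were exchanges of 1 dominant junction for another. In ARHGEF3, an exchange factor that activates small GTPases, a target LSV at positions 56916320 to 56916382 of chromosome 3 joins an upstream 67-nucleotide coding exon or a 163-nucleotide first exon. The upstream exon held 13.7% in unstimulated control, 93.8% in unstimulated depleted, 12.7% in PMA-treated control and 96.4% in PMA-treated depleted cells. The first exon held 85.4%, 5.4%, 85.5% and 3.0% in the same order. The groups thus parted by depletion alone, with expected changes of the upstream junction of 82.1 and 85.9 points in the authors' deposited tables, and entropy stayed low, at 1.02 and 0.76 bits without and 1.01 and 0.66 with PMA. OXR1, which protects against oxidative damage, made the opposite exchange: its upstream 163-nucleotide exon held 86.4%, 6.8%, 82.1% and 11.6%, and an alternative first exon 12.9%, 91.3%, 16.5% and 81.1%.

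Other exchanges had 1 state apart. LIMS1, or PINCH1, an adaptor of focal adhesions, has 9 choices into 1 exon, and its most distal first exon held 86.6% and 97.2% without PMA, 7.1% in PMA-treated control and 84.2% in PMA-treated depleted cells. A nearer first exon held 5.4%, 2.5%, 92.2% and 14.5%. Only the PMA-treated control group used the nearer exon as its main one, and the change was called with PMA and not without (highest posterior probability 0.0144 in the authors' deposited table). In TLDC1 the PMA-treated control group was again the one apart, with a distal first exon at 6.9%, 2.5%, 70.8% and 2.5%. In USP44, a deubiquitinase of the mitotic checkpoint, the unstimulated depleted group was the one apart, with 66%, 7.4%, 71.9% and 67.4% at a distal first exon.

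In CAPG, which caps actin filaments, a distal first exon rose from 26.6% to 86.6% without PMA and stood at 21.0% and 40.1% with PMA, while a nearer one fell from 58.7% to 4.6% and stood at 36.8% and 22.1%. SH2D3C, an adaptor of lymphocyte signalling listed in the PMA table alone, moved from an upstream coding exon (73.8% to 2.6%) to a first exon (21.6% to 96.6%). Exchanges within a gene's body included MFSD8, a lysosomal membrane protein, in which a 145-nucleotide exon rose from 25.7% to 82.8% without and from 16.1% to 55.4% with PMA. The exon after it, of 56 nucleotides, fell from 70.0% to 5.6% and from 70.8% to 34.5% when joined directly.

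**Figure D4:**
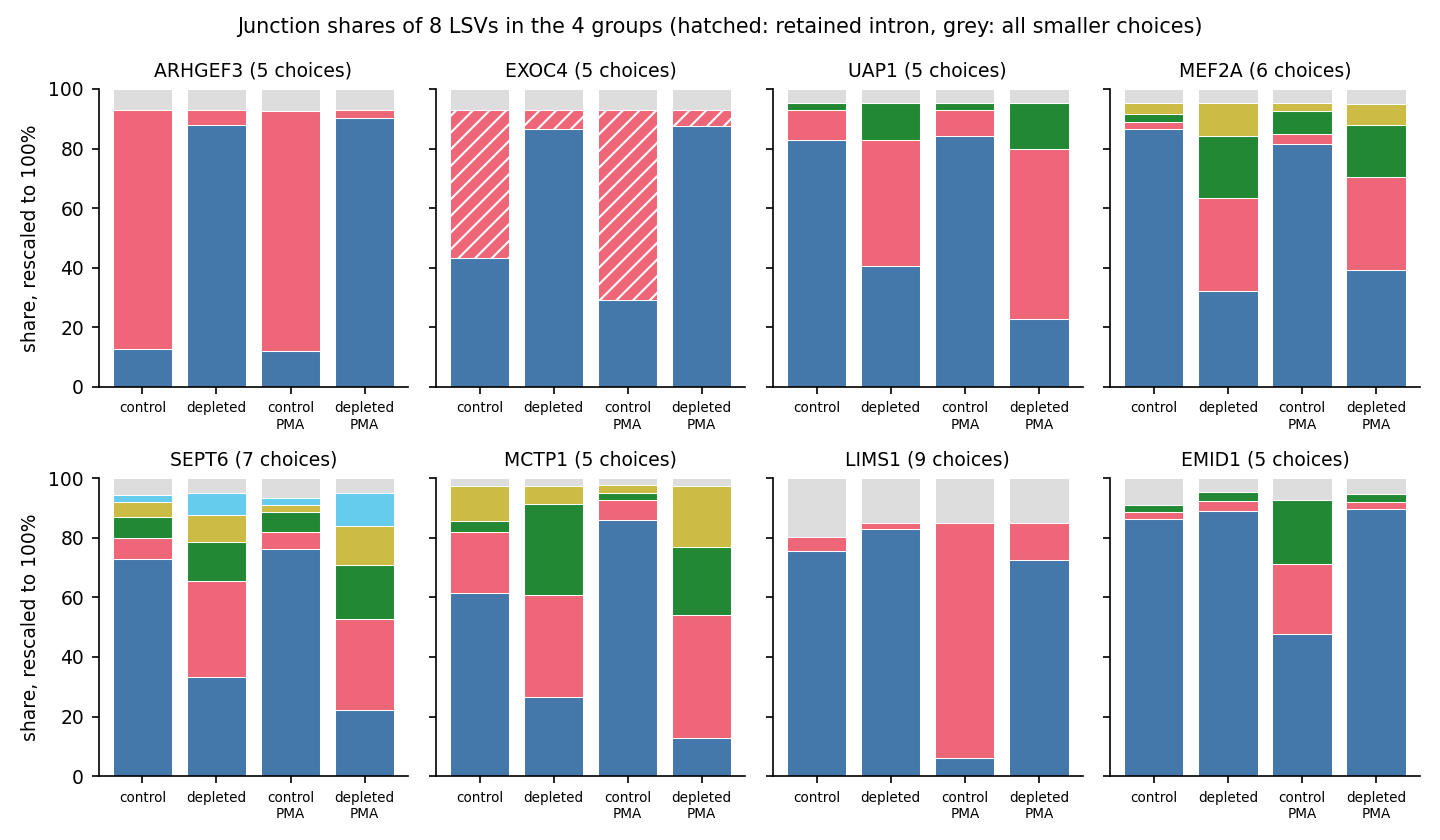
Junction shares of 8 LSVs, rescaled to sum to 100% (vertical axis), in the 4 groups (horizontal axis: control and depleted without PMA, then with PMA); each colour is 1 choice, hatching a retained intron and grey all choices that never exceed 8%. ARHGEF3 exchanges 1 dominant choice for another in both states, and in EXOC4 the main choice is replaced as use narrows to 1. MEF2A, SEPT6 and MCTP1 spread over several in depleted cells, and in LIMS1 and EMID1 the PMA-treated control group differs from the other 3.

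UAP1, the enzyme that makes UDP-N-acetylglucosamine, chose between skipping and the exon printed above. Joining the exon at its first acceptor rose from 10.3% to 43.8% without and from 9.0% to 59.7% with PMA, and skipping fell from 87.1% to 42.4% and from 88.8% to 24.1%. The acceptor 3 bases further on held 2.5%, 12.9%, 2.5% and 16.3%, below the called size in both states. Both acceptors were thus higher in depleted than control cells, and the longer form was the larger in all 4 groups. FNBP1, a membrane-bending partner of the actin machinery, moved from the farther to the nearer of the 2 printed exons. The farther exon fell from 65.3% to 30.1% without and from 81.9% to 15.4% with PMA, and the nearer one rose from 24.2% to 49.7% and from 12.8% to 61.8%.

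Spread from 1 dominant junction to many was led by MEF2A, a MADS-box transcription factor of activated T cells, without PMA. Its main first exon held 94.4% in unstimulated control and 33.2% in unstimulated depleted cells, and 87.1% and 40.2% with PMA. A second first exon rose from 2.6% to 32.0% without and from 3.8% to 31.8% with PMA, and the junction next to it held 2.6%, 21.5%, 8.2% and 17.9%. Entropy went from 0.87 to 2.13 bits and from 1.09 to 2.03 bits, so both depleted groups lay above both control groups. MCTP1, a calcium-binding membrane protein, spread over the 3 small exons printed above with PMA. Its main junction, to an exon upstream of them, fell from 62.8% to 27.3% without and from 90.5% to 13.0% with PMA, while exon b held 21.1%, 34.7%, 6.8% and 42.4%, exon c 12.1%, 6.3%, 2.8% and 21.3%, and exon d 3.8%, 31.4%, 2.5% and 23.2%. With PMA all 3 were higher in depleted cells, and exon b alone was called, whereas without PMA exon d alone was.

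SEPT6, a septin, spread at its 3′ end. The main junction fell from 75.2% to 34.1% without and from 78.8% to 22.9% with PMA, and a junction to an alternative last exon rose from 7.3% to 33.1% and from 6.1% to 31.5%. Its entropy was 1.5, 2.29, 1.38 and 2.45 bits in the 4 groups. Besides MEF2A, large entropy increases without PMA were in ANKRD46, SLC25A45 and LOXL1-AS1, at 0.88, 0.89 and 0.92 bits. With PMA IP6K2, an inositol hexakisphosphate kinase, went from 1.36 to 2.39 bits, ZNF3 from 0.91 to 1.90 and DDX12P from 0.88 to 1.98. DDX12P is a pseudogene of the DDX11 family, and reads shared with its copies leave its shares uncertain.

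Narrowing to 1 junction was led without PMA by SLC25A29, a mitochondrial carrier of basic amino acids, from 2.24 to 0.96 bits. Its junction to an 84-nucleotide coding exon rose from 42.0% to 93.4%, and from 27.5% to 59.7% with PMA. SUSD1 narrowed from 1.83 to 0.81 bits, with 1 junction rising from 54.9% to 94.7%, and AKR1E2, an aldo-keto reductase, from 1.79 to 0.87 bits, with 1 rising from 46.4% to 88.3%. In neither was that junction called with PMA, at 52.4% and 67.0% in SUSD1 and 31.0% and 25.2% in AKR1E2. ZGRF1 narrowed from 1.67 to 0.80 bits without PMA and stood at 1.12 and 1.74 bits with it.

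The largest falls of entropy with PMA started from high values in control cells, which the choice by size of fall favours. EMID1, WSB1, KCTD1, WIBG and MBTPS1, the 5 genes with the largest falls, had entropies in PMA-treated controls of 1.82, 2.33, 2.06, 2.16 and 1.77 bits, higher than in the other 3 groups of each. The main junction of EMID1 held 92.1%, 93.7%, 48.9% and 94.0%. That of MBTPS1, the site-1 protease of the Golgi, held 86.4%, 97.0%, 47.6% and 94.6%, and its retained intron 7.5%, 2.6%, 34.6% and 3.6%. WSB1, an adaptor of a ubiquitin ligase, held 77.4%, 97.3%, 28.8% and 84.0% at the junction that was its main one in the other 3 groups, and another junction was at 33.1% in PMA-treated controls. Not all narrowing genes had this arrangement: in EXOC4 and MYO18A entropy was highest in unstimulated controls, at 1.4 and 2.43 bits. In EMID1, MBTPS1 and WSB1 the PMA-treated control group was the only one low. Of the 209 LSVs called with PMA alone, that group was counted as the one apart in 144 (68.9%) and the PMA-treated depleted group in the other 65. Of the 115 called without PMA alone, the depleted group was counted as apart in 76 (66.1%) and the control group in 39. Every LSV of these sets was counted for 1 group, also where the groups split 2 against 2. These shares are therefore not comparable with those given earlier for all LSVs. In each of these sets, 0 LSVs had a group of the other state apart. The sets are chosen by a call in 1 state and none in the other, which favours that outcome, so the 0 is not a separate result. The part of the PMA-treated control group in the calls was not tested.

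Retained introns moved both ways. Among the retained introns of these LSVs 15 rose and 10 fell without PMA, of 2459 (0.61% and 0.407%), and 12 rose and 21 fell with PMA, of 2479 (0.484% and 0.847%). The same shares were not worked out for retained introns of LSVs with fewer choices, so these counts and their directions have no baseline. Introns were counted per LSV, so one listed from both flanking exons, as in FANCA without PMA, was counted for each. In EXOC4, a subunit of the exocyst, an intron of 167 nucleotides held 53.2%, 7.0%, 66.3% and 5.9%, and the spliced junction 46.2%, 92.9%, 30.5% and 94.0%. Removal of the intron was thus the main form in both depleted groups. PRKAG1, a regulatory subunit of the kinase AMPK, went the other way, with an intron of 108 nucleotides at 8.3%, 64.9%, 5.6% and 51.0%.

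PAX6, a developmental transcription factor listed in the PMA table alone, retained a 69-nucleotide intron at 14.5% in control and 79.0% in depleted cells. In FANCA, of the Fanconi anaemia DNA repair pathway, an intron of 41 nucleotides rose from 25.5% to 78.9% without PMA and stood at 52.5% and 67.9% with it. HMGB1, a chromatin protein with many processed copies in the genome that could share its reads, retained a 91-nucleotide intron at 11.5%, 58.9%, 30.7% and 32.2%, called without PMA. The 2 PMA groups of HMGB1 lay between the unstimulated ones.

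Genes of the actin cytoskeleton and adhesion were the list with the largest share of called genes in both states. This list and 8 others were set down with earlier results of these data known, so its count is a description. Of its 47 genes with an LSV of 5 or more choices, 9 were called without PMA (19.1%) and 13 with PMA (27.7%), against 4.54% and 7.08% of all genes with such an LSV. Entropy was higher in depleted cells in 4 of the 9 and in 8 of the 13.

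Contractile and cross-linking genes came first among them. MYL6, the essential light chain of non-muscle myosin, joined its 45-nucleotide exon at 20.3%, 65.5%, 12.4% and 75.9% and skipped it at 76.5%, 30.1%, 81.5% and 20.2%. The exon's inclusion was higher in both depleted groups than in both control groups, and the target LSV at its other end gave 17.1%, 63.5%, 11.7% and 73.9%. NF2, or merlin, a membrane-cytoskeleton linker and tumour suppressor, used its 45-nucleotide exon at 16.7%, 50.9%, 24.5% and 61.9%, again higher in both depleted groups. EPB41L2, a protein 4.1 that ties actin to the membrane, used its 63-nucleotide exon at 2.5%, 21.7%, 2.5% and 41.1%, called with PMA, where 7 junctions leave the exon before it.

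Actin assembly genes followed. In INF2, a formin, a junction to a 57-nucleotide exon rose from 24.4% to 67.4% without and from 7.8% to 34.4% with PMA, and the junction to the annotated last exon fell from 44.9% to 18.1% without PMA and stood at 65.6% and 47.7% with it. CTTN, cortactin, was listed in the PMA table alone, where the junction to 1 of 2 exons of 111 nucleotides rose from 26.6% to 76.1% and that to the other fell from 69.2% to 23.7%. ABI1, of the WAVE complex that activates branched actin, has an exon with acceptors 3 nucleotides apart. They held 33.0%, 40.3%, 30.7% and 50.5% for the longer and 24.7%, 31.4%, 19.5% and 29% for the shorter form, and the junction that skips them fell from 48.6% to 13.1% with PMA.

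First exons changed in EVL, of the Ena/VASP family, and in WIPF1, the partner of the Wiskott-Aldrich protein. In EVL the distal first exon rose from 41.6% to 73.1% without PMA and stood at 2.5% and 14.6% with it, so that the PMA-treated groups were low in both kinds of cells. In WIPF1 the distal first exon held 38.8%, 81.0%, 43.2% and 62.9%, called without PMA. MYO18A, an unconventional myosin, narrowed at its upstream target LSV from 2.43 to 1.53 bits without and from 2.09 to 1.52 bits with PMA, its main junction rising from 38.6% to 77.2% and from 51.5% to 79.0%. TPM4, a tropomyosin with 12 choices, held 87.9%, 97.5%, 54.3% and 86.5% at its main first exon, the PMA-treated control group being low.

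Septins, filament-forming GTPases, are on this list too, and SEPT9 holds 1 of the 3 widest LSVs, with 21 junctions into 1 exon. A first exon of up to 220 nucleotides there held 2.5%, 2.5%, 43.5% and 2.5%, present as a main choice in PMA-treated control cells alone. The main junction of the other 3 groups held 56.8%, 53.6%, 24.3% and 56.4%. In unstimulated cells a different junction of the same LSV fell from 33.7% to 8.1%, and at a second SEPT9 LSV of 15 choices the main junction fell from 78.2% to 43.7%. SEPT2 was called in each state at a different LSV. MICAL1, an enzyme that oxidises actin, retained an 83-nucleotide intron at 16.5%, 17.6%, 10.8% and 36.4%, called with PMA.

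RNA-binding proteins and splicing factors had 3 of 64 genes called without PMA (4.69%) and 6 of 64 with PMA (9.38%), near the shares of all genes. CELF2 itself had a called LSV of 5 choices with PMA, where the junction to an 80-nucleotide exon held 89.2%, 96.1%, 51.4% and 85.6% and the one that skips it 9.7%, 2.5%, 47.0% and 13.1%. CELF1, its closest relative, spread from 1.37 to 2.18 bits with PMA, its main junction falling from 80.4% to 40.9%, and stood at 2.02 and 2.27 bits without PMA. NSRP1, a regulator of alternative splicing, narrowed in both states, its main junction rising from 66.5% to 92.3% and from 47.6% to 85.7%.

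SRSF6, an SR protein, joined an exon of 268 nucleotides at 14.1%, 8.6%, 43.0% and 14.2%, with the junction past it at 75.7%, 73.1%, 31.9% and 67.7%. TRA2A, another splicing activator, held 68.8%, 68.1%, 42.9% and 70.8% at its main junction. In both genes the change was called with PMA alone, and the PMA-treated control group was the one apart. TARDBP, or TDP-43, listed a retained intron at 87.0%, 72.2%, 94.9% and 62.1%, called with PMA, where it was lower in depleted cells. SRSF10 and SRPK2, an SR protein and a kinase of SR proteins, were called without PMA: a 163-nucleotide exon of SRSF10 rose from 8.1% to 33.5%, and a 55-nucleotide exon of SRPK2 from 41.3% to 70.2%.

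In MAPK and small GTPase signalling 2 of 31 genes were called without PMA (6.45%), against 4.54% of all genes with many-way choices. With PMA 4 of 32 were called (12.5%), against 7.08% of all such genes. Besides ARHGEF3 the called genes were ARHGEF2 without PMA and GIT2, ARHGEF1 and ARHGAP4 with it. GIT2, a regulator of ARF GTPases at adhesions, narrowed from 2.28 to 1.35 bits with PMA onto the printed 90-nucleotide exon, which held 61.3%, 86.5%, 26.7% and 80.6%. A junction to a more distant site held 2.5%, 2.5%, 37.0% and 2.5%, and so was seen at a sizeable share in PMA-treated controls alone. T cell receptor signalling had 1 of 27 genes called without PMA (3.70%) and 0 of 26 with PMA, both under the shares of all genes. The called gene was DGKA, a diacylglycerol kinase. Its main junction fell from 97.5% to 65.8% without PMA and stood at 97.5% and 79.6% with it.

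Chromatin and transcription regulators had 3 of 47 genes called without PMA (6.38%), against 4.54% of all genes with many-way choices. With PMA 4 of 46 were called (8.70%), against 7.08% of all such genes. CHD3, a NuRD helicase, exchanged a 102-nucleotide coding exon (58.3%, 27.7%, 62.0% and 35.0%) for a 126-nucleotide one (39.4%, 66.5%, 35.4% and 60.7%), and both junctions were called in both states. DNMT3A, a DNA methyltransferase, narrowed with PMA from 2.42 to 1.70 bits as an upstream 147-nucleotide exon rose from 33.3% to 71.7%. HDAC7 spread with PMA from 1.02 to 1.57 bits, its main junction falling from 86.7% to 58.2%, and a first exon of BRD2 rose from 33.1% to 60.2% without PMA.

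Cell cycle and DNA repair had 5 of 48 genes called without PMA (10.4%), against 4.54% of all genes with many-way choices. With PMA 2 of 46 were called (4.35%), against 7.08% of all such genes. KIF23, the motor of the central spindle, was called in both: the junction from a 312-nucleotide coding exon held 44.7%, 17.8%, 65.1% and 33.7%, and that from the 180-nucleotide exon before it 52.0%, 81.0%, 31.0% and 61.3%. The junction past the long exon was thus higher in both depleted groups. CDK6, a G1 kinase, was called at its target LSV without PMA, where a first exon rose from 18.8% to 61.4%, and at a source LSV with PMA, where the main junction fell from 97.5% to 63.9%. CHEK1, a checkpoint kinase, spread from 1.60 to 2.23 bits in unstimulated cells, and the 16 choices of NUMA1, a spindle pole protein, stayed at 2.84 and 2.80 bits while 1 first exon rose from 19.4% to 48.4%.

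Cell death and NF-kappaB genes had 2 of 24 called without PMA (8.33%), against 4.54% of all genes with many-way choices. With PMA 2 of 25 were called (8%), against 7.08% of all such genes. CARD8, an inflammasome protein, narrowed without PMA from 1.57 to 1.26 bits, as its main choice of depleted cells held 53.2% in control and 80.2% in depleted cells. CASP10, an initiator caspase, skipped a 37-nucleotide exon at 28.7% in control and 68.6% in depleted cells with PMA. BCL2L1, which encodes the survival protein BCL-XL, spread over its first exons with PMA from 2.35 to 2.62 bits, 1 junction rising from 2.7% to 27.9%.

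In the ubiquitin pathway 4 of 62 genes were called without PMA (6.45%), against 4.54% of all genes with many-way choices. With PMA 3 of 62 were called (4.84%), against 7.08% of all such genes. All the called genes but UBA1 spread. TRIM65, a ubiquitin ligase, was called in both states, its main junction, to a 66-nucleotide exon, holding 83.6%, 51.0%, 86.9% and 62.2%. RNF146, a ligase that recognises poly-ADP-ribose, was called in both at different junctions, the 109-nucleotide exon holding 2.7%, 17.1%, 4.1% and 35.5%. Vesicle trafficking had 1 gene called in each state, GGA1 of 32 without (3.1%) and SH3KBP1 of 31 with PMA (3.2%), under the shares of all genes.

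The second comparison asked how far the states matched. Among the LSVs listed in both, 65 in 60 genes were called in each state (0.951%), which is 36.1% of the 180 called without PMA and 23.7% of the 274 called with it. The same shares were not worked out for LSVs of fewer choices, so they cannot be read as particular to many-way choices. In 46 of the 65 the same junction had the largest change, and in 62 the junction with the largest change without PMA had the same sign with PMA. Entropy was higher in depleted cells in both states in 38, lower in both in 13, and opposite in 14.

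The 3 LSVs of opposite sign were in FAM193B, PAQR6 and ZNF384, singled out after their values were seen. A retained intron of FAM193B held 54.6%, 23.2%, 33.1% and 53.4%, and one of PAQR6 71.9%, 42.7%, 33.6% and 49.1%. Neither intron passed the call with PMA, where other junctions of the LSV did. The ZNF384 junction held 59.9%, 31.9%, 38.3% and 41.3%, and it too did not pass the call with PMA. Its expected change there was 0.152 points, so it was nearly unchanged rather than reversed.

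LSVs called in 1 state mostly leaned the same way in the other. Of 115 called without PMA alone, 99 had the same sign with PMA, with a median expected change in the authors' deposited tables of 34.2 points in their own state and 7.27 points in the other. Of 209 called with PMA alone, 172 had the same sign without it, with medians of 32.2 and 2.20 points in the authors' deposited tables. An LSV enters these sets by its own state, so a larger median there is built in. The difference between states was not tested.

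**Figure D5:**
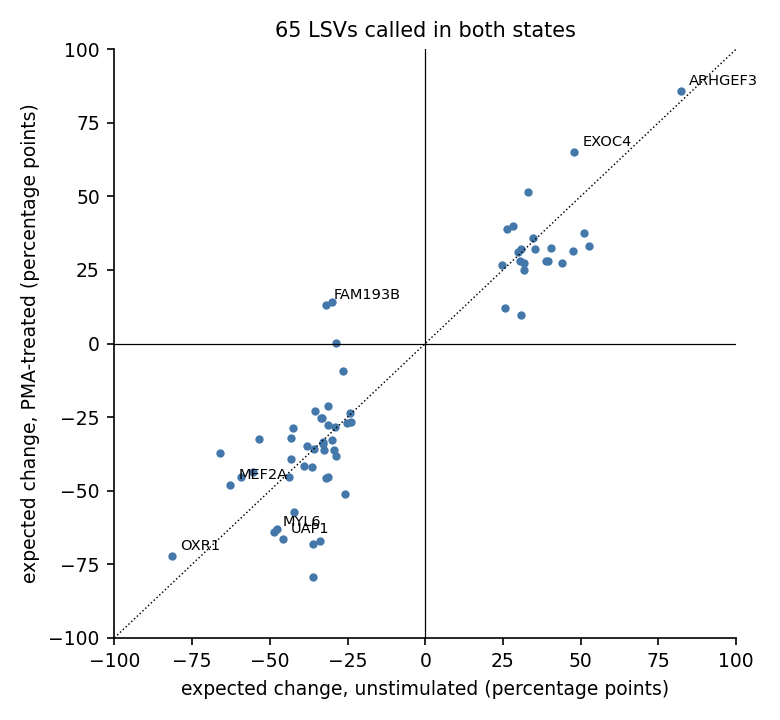
Expected change from the authors' deposited tables (depleted minus control, percentage points) in PMA-treated cells (vertical axis) against unstimulated cells (horizontal axis) for the 65 LSVs called in both states, each at the junction with its largest change without PMA; the dotted line marks equal change. In 62 LSVs both changes have the same sign, with ARHGEF3 and OXR1 at the ends, and FAM193B is 1 of the 3 that lie across an axis.

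Few main junctions differed between states. Among the 3727 genes in both tables the main junction differed between PMA-treated and unstimulated controls in 212 (5.69%) and between the depleted groups in 210 (5.63%). Between control and depleted cells it differed in 204 without PMA (5.47%) and in 265 with PMA (7.11%). The 2 tables were quantified separately by the authors, and these contrasts between them carry no posterior probability.

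Taking 1 LSV per gene, that with the most choices, the largest differences in entropy between PMA-treated and unstimulated controls were in EMID1 (0.82 to 1.82 bits), PTS, of tetrahydrobiopterin synthesis (1.94 to 1.04), CRYBB2P1 (1.33 to 2.22), PCYT2, of phosphatidylethanolamine synthesis (0.89 to 1.74), TPM4 (1.66 to 2.5) and MBTPS1 (0.94 to 1.77). In PTS skipping past a 23-nucleotide coding exon was at 90.1% in PMA-treated controls, against 36.1%, 28.1% and 40.9% in unstimulated control, unstimulated depleted and PMA-treated depleted cells. These genes were picked for the gap between the control groups. CRYBB2P1 is a pseudogene, and its shares are uncertain for that reason.

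The widest LSVs were otherwise steady. EEF1D, a translation elongation factor, and RAP1B, a small GTPase of adhesion, have 21 choices each and were not called, with main shares between 62.6% and 65.9% and between 70.4% and 78.6% over the 4 groups. In both a second junction to the same partner exon, leaving or entering the shared exon at a site a few nucleotides away, took most of the rest: 18.4% to 21.2% in EEF1D and 17.4% to 25.2% in RAP1B. GNAS, the stimulatory G protein subunit, has 20 choices with 88.6% to 92.4% in 1 of them, and ACSF3 has 17 with 93.8% to 97.5% in 1.

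The most evenly used choices in unstimulated controls, relative to their maximum, were in TRMT13, a tRNA methyltransferase, U2AF1L4, a paralogue of the splicing factor U2AF1, FKBP7 and AC091729.9. U2AF1L4 shared its use among 5 choices at 12.7%, 19.9%, 13.8%, 12.7% and 41.0%, and had entropies of 2.14, 2.22, 2.19 and 2.25 bits in the 4 groups. FKBP7 used 6 junctions, at 32.7%, 26.1%, 6.3%, 10.9%, 11.8% and 12.4%, which pair 3 partner exons with 2 sites of the shared exon 3 nucleotides apart. Of these 4 LSVs 1 was called, that of AC091729.9 with PMA, where its retained intron fell from 55.9% to 18.3%. At the other end NDUFAB1, SLC25A5, PDK2 and MARK4 had 97.5% in 1 of 5 choices in all 4 groups, the lowest entropy that 5 listed choices allow.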

How the data were processed

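Libraries of polyadenylated RNA from JSL1 cells were made with a stranded kit, per the labels' protocols. STAR 2.5.1b and the build hg19 appear in the submitters' processing notes, which give no role for either. The deposited tables have the columns of MAJIQ and VOILA output, of a version the sources do not state. For each junction they hold the authors' expected fraction of use in each group, an expected change and a posterior probability, with the pair of libraries of a group combined; the tables hold no read counts. Unstimulated and PMA-treated cells were quantified separately.

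Shares were rescaled to sum to 1 within an LSV before Shannon entropy was computed. The main junction is that with the largest share. With 1 value per group no test over libraries was made. Genes are named by a fixed rule: the largest changes and entropy changes of called LSVs, LSVs called in both states, called genes of 9 lists, the widest LSVs, and the highest and lowest entropies. Members and lists were chosen with earlier results of these data known. Exon sequences and annotation come from GENCODE 29 transcripts matched by exon structure, since no hg19 genome was used. The scripts used Python 3.11.15, pandas 2.3.3, NumPy 2.4.6 and Matplotlib 3.10.9. The entropy step and the choice of 1 LSV per gene were tested on simulated data, and the calls were not. Alternatives changed the threshold, the number of choices, the choice of LSV and the treatment of low shares. How often each group stood apart was examined after the data were seen. Some genes that the naming rule picks are not reported here.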

Additional observations from a re-analysis of the deposited data

How the results depend on the processing

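The counts are of genes called, of called genes with higher entropy in depleted cells, and of called genes with a replaced main junction: 127, 75 and 60 without PMA and 184, 106 and 78 with it. A posterior probability of 0.99 left 84 and 118 genes called. An expected change of 20 points or more in place of the posterior gave 275, 148 and 96 without and 377, 217 and 142 with PMA. From 4 choices on, 94 main junctions were replaced without PMA, and with PMA 280 genes were called and 129 replaced. From 6 choices on, the counts were 77, 47 and 31 without and 110, 66 and 45 with PMA. Counting all LSVs gave 193 called and 95 replaced without, and 305, 172 and 134 with PMA. Without LSVs that hold an unannotated junction the counts were 29, 16 and 16, and 30, 18 and 16. Far fewer genes were left in that setting, and the share of them called hardly differed between states. In the main setting that share was higher with PMA, so this difference depended on keeping LSVs with unannotated junctions. Without LSVs that hold a retained intron, 49 had higher entropy and 37 a replaced main junction without PMA, and 69 had higher entropy with PMA. Source LSVs alone gave 52, 24 and 23 without and 101, 70 and 44 with PMA, and target LSVs alone gave 68 with higher entropy with PMA. Most of these settings change how many LSVs are counted; the cause of the turn in direction between source and target LSVs was not tested. Median entropies ranged from 0.513 to 1.41 bits over the settings. No paired analysis was possible because the deposited values combine the libraries of a group, and for the same reason no library could be left out. Read depth, which limits each share, is not known.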
